A study of Mus musculus with 24 samples.

Results

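Skin of mice taken 12 h after a single local gamma irradiation of the hind leg was set against skin of mice that were not irradiated. The comparison used the 3 skin arrays labelled 12 h and the 3 skin arrays labelled as non-irradiated, 6 of the 24 arrays of the series, and they were paired by strain. The irradiated group was skin 12 h after 30 Gy to the hind leg, with 1 pool each from A/J, from C57BL/6J and from C3H/HeMs, which are all inbred, and the controls were skin of the same strains without irradiation. Where 3 values stand side by side, they are in this strain order. All mice were females 12 to 13 weeks old, and each array held RNA of 3 mice pooled, so each strain gave 1 pool per group. The skin was dissected through its full thickness, which takes in epidermis, hair follicles, dermis, fat and a thin muscle sheet. Every array compared the pool with the same kind of reference, a mixture of commercial RNA from 10 organs. The other skin pools, taken 1 h and 72 h after 30 Gy, and lung pools taken 12 h after 10 Gy to the thorax, served as comparisons. By its title, the series looked for radiation-induced genes common to lung and skin over the strains.

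Ionizing radiation breaks DNA, and the protein p53 is then stabilized and switches on genes that stop the cell cycle, repair DNA or drive apoptosis. Skin is a tissue that renews itself: cells divide in the basal epidermis and the hair follicles, and genes of mitosis are read mainly in those dividing cells. Irradiated skin is also known for an early wave of cytokines and chemokines that call in neutrophils and monocytes, before the later inflammation seen as radiation dermatitis.

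Values are log2 ratios of skin RNA over reference RNA, centred on the median of each array, so 0 marks a gene as abundant in skin as a typical gene is relative to the mixture. A change is the 12 h value minus the control value of the same strain, and 1 unit of change is 2-fold. The arrays measured 9275 probes, which gave 8750 features after probes of a gene were averaged, 5908 of them with a gene symbol. The number of arrays limits the precision. With 1 pool per strain and group, a p-value here reflects how much the strains' pools vary, and the variation among individual animals was not measured.

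The make-up of the pools differed. All 20 measured genes of epidermal differentiation lay above the reference on the 3 arrays at 12 h, with medians between 2.86 and 3.57, and on the control arrays 17 to 20 did, with medians between 2.26 and 3.53. Skeletal muscle genes, of which 31 were measured, had a median log2 ratio of -1.52 in the A/J pool at 12 h and -1.79 in the A/J control. In C57BL/6J the median was -1.01 at 12 h and -0.88 in the control. In C3H/HeMs it was -1.81 at 12 h and -0.20 in the control, and 2 of the 31 genes lay above the reference at 12 h, against 15 of 31 in the control. The C3H/HeMs control pool had the highest muscle signal of these 6 pools, and the change in C3H/HeMs compares pools that differ in it.

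The 6 muscle genes with the widest range over the skin arrays showed the same split. Mylpf, a light chain of fast muscle myosin, had log2 ratios of 0.04, -0.20 and -1.81 at 12 h, and -1.45, 0.12 and 2.11 in their controls. Atp2a1, the calcium pump of fast fibres, differed between 12 h and control by 1.67 for A/J, -0.37 for C57BL/6J and -3.99 for C3H/HeMs. For Pvalb, the calcium buffer parvalbumin, these differences were 2.80, -0.03 and -4.04. The troponin genes Tnni2 and Tnnt3 differed by -3.89 and -3.94 in C3H/HeMs and by 1.08 and 1.13 in A/J. Car3, a carbonic anhydrase of muscle and fat, differed by 0.02 for A/J, -0.02 for C57BL/6J and -1.72 for C3H/HeMs. The median change of the muscle list was 0.16 for A/J, -0.32 for C57BL/6J and -2.07 for C3H/HeMs.

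The C57BL/6J pool at 12 h stood apart in other markers. Its 14 B cell genes had a median log2 ratio of -0.10, against -1.04 in the C57BL/6J control, while the A/J values were -1.30 at 12 h and -0.66 in the control. Those of C3H/HeMs were -1.37 at 12 h and -1.28 in the control. Cd79a, the signalling chain of the B cell receptor, was at -0.03 in that pool, against -2.72 in its control. The 12 adipocyte genes had a median of 2.35 in it, against 1.24 in its control, and in C3H/HeMs they were at 1.19 at 12 h and 2.28 in the control. Cidec and Plin4, both proteins of the fat droplet, were 3.66 and 2.85 log2 units higher in the C57BL/6J pool at 12 h than in its control. In such bulk RNA, fewer cells of a type and less RNA per cell cannot be told apart.

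**Figure D1:**
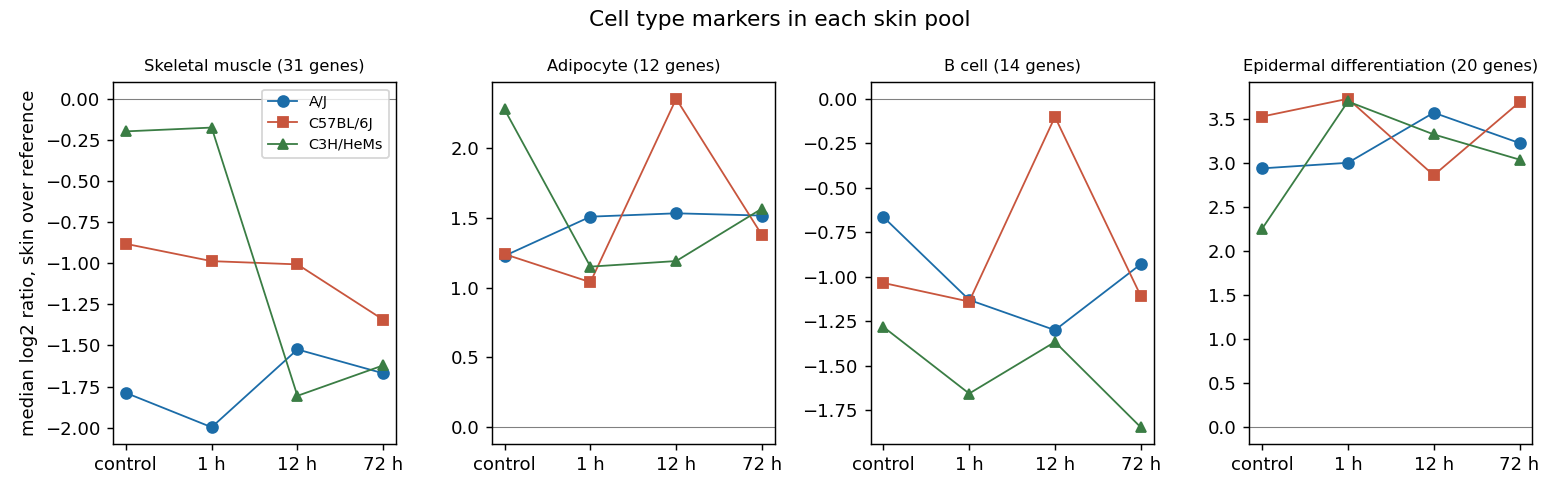
Median log2 ratio of skin over reference for 4 lists of cell type markers (vertical axis) in each skin pool by time (horizontal axis), with 1 line per strain. For muscle genes C3H/HeMs lies at -1.81 at 12 h, against -0.20 in its control, and the C57BL/6J pool at 12 h lies above its control for adipocyte and B cell genes.

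No feature passed an adjusted p of 0.05 between 12 h and control in limma with the strain as a block. The smallest adjusted p in that limma fit was 0.0791, for Dcxr. At an unadjusted p under 0.05 the same fit gave 587 of 8750 features, 6.71% of all, where 437.5 would be given by chance. Of these, 262 were higher at 12 h (2.99% of all features) and 325 lower (3.71%). The count at the unadjusted threshold was 1006 without the A/J array at 12 h and 250 without the C57BL/6J arrays. Robust moderation of the spread gave 0 calls and 586 features at the unadjusted threshold. The members of the gene lists below are therefore described by counts at the unadjusted threshold, beside these shares, and by their direction in each strain.

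By size, 22 features were at least 2-fold higher at 12 h in all 3 strains (0.251% of the 8750) and 4 were at least 2-fold lower (0.0457%). Of the 22, 18 had a gene symbol, and their folds ran from 2.27 to 12.9. In all, 899 features were higher at 12 h in each of the 3 strains (10.3%) and 1372 were lower in each (15.7%). For 318 features all 3 arrays at 12 h lay above all 3 controls (3.63%), and for 465 they lay below (5.31%). Changes of single strains had little in common over all features, with correlations between -0.19 and 0.15 across features, which are not independent of each other.

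Genes that p53 activates were mostly higher at 12 h. Of 19 measured members 13 were higher at 12 h in all 3 strains, against 10.3% of all features. For 13 of the 19 all 3 12 h arrays lay above every control, against 3.63% of all features. For 1, Xpc, they lay below every control, against 5.31% of all features. In limma 11 reached an unadjusted p under 0.05, all of them higher, against 2.99% of all features. The median change of the list was 0.97, with 1.04 for A/J, 0.71 for C57BL/6J and 0.94 for C3H/HeMs, while that of all features was -0.03, with -0.03, -0.12 and 0.01 in the same strains. The list's median was 0.98 with the muscle signal of each array as a covariate and 0.87 without the C3H/HeMs arrays. With that covariate 10 of the 19 reached an unadjusted p under 0.05, and over all features 219 higher and 250 lower did.

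Among the members that hold the cell cycle, Cdkn1a encodes p21, the inhibitor of cyclin-dependent kinases. Its log2 ratios were 4.05, 4.22 and 5.14 at 12 h, and 2.69, 3.32 and 2.87 in the controls. All pools at 12 h lay above all controls, a difference of 2.84-fold (1.51 ± 0.28 SE on the log2 scale, n = 3 pools each, limma adjusted p = 0.168). Ccng1, cyclin G1, a feedback regulator of p53, stood at 2.05, 2.23 and 1.72 at 12 h and at -0.38, -0.35 and 0.68 in the controls. It was 4.05-fold higher (2.02 ± 0.31 SE, limma adjusted p = 0.144), and by least in C3H/HeMs, where the change was 1.04. Rprm, which encodes reprimo, linked to arrest before mitosis, differed by 0.63 ± 0.20 SE and was higher in 3 of 3 strains.

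One window of sequence bears on Cdkn1a, since it held the p53 half-site pair. The 250 bases before one of its annotated starts (chr17:29090729-29090978, plus strand, GRCm38.p6, from RefSeq) are printed with the p53 half-sites that matched in capitals.
Cdkn1a: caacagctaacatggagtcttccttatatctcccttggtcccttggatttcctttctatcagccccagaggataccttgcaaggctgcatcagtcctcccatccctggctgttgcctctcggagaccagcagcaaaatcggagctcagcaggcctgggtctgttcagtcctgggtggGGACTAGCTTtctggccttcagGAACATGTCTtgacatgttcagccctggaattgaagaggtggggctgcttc
Of the 19 measured targets 15 matched a RefSeq promoter, with 18 windows, and the p53 half-site pair, with up to 13 bases between half-sites of 10, was found in 1 of these, against 0.0639% of 32851 windows of all genes. A match is a description of the letters and not a site that was shown to be bound.

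Members tied to apoptosis and to p53 itself went both ways, with Tnfrsf10b, a death receptor, at a negative difference given below. Pmaip1, which encodes the BH3-only protein Noxa, had log2 ratios of 2.26, 1.32 and 1.62 at 12 h, against 0.20, 0.11 and 0.01 in the controls. It was 3.10-fold higher (1.63 ± 0.26 SE, limma adjusted p = 0.144). Trp53inp1, a p53-induced nuclear protein, was at 3.70, 2.75 and 3.13 at 12 h, against 1.36, 1.77 and 1.30 in the controls. The 12 h and control pools did not overlap for either gene, and Trp53inp1 differed by 1.72 ± 0.33 SE (3.29-fold, limma adjusted p = 0.168). Mdm2, the ubiquitin ligase that degrades p53, was 2.25-fold higher (1.17 ± 0.30 SE), with changes of 1.69, 1.29 and 0.54. Ei24, an endoplasmic reticulum protein induced by p53, differed by 0.97 ± 0.82 SE and was higher in each strain, by 0.71 to 1.15.

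Targets in repair and metabolism included the gene with the smallest p of all features. The list was chosen with earlier results of these data known, so this rank is only a description. Dcxr, which encodes a carbonyl and xylulose reductase, had log2 ratios of 1.29, 1.44 and 1.77 at 12 h, against -1.17, -0.86 and -0.21 in the controls. The groups were well apart, and Dcxr was 4.74-fold higher (2.24 ± 0.27 SE, limma adjusted p = 0.0791). Ephx1, the microsomal epoxide hydrolase, was 2.67-fold higher (1.42 ± 0.28 SE, limma adjusted p = 0.168). Polk, a polymerase that copies past damaged bases, was 2.83-fold higher, and Ercc5, a nuclease of nucleotide excision repair, by 1.02 ± 0.24 SE. Both were higher in 3 of 3 strains.

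The rest of the list gave smaller differences. Tap1, a peptide transporter that interferon also induces, was at 1.74, 1.56 and 1.78 at 12 h, against 1.14, 1.08 and 1.15 in the controls, a difference of 0.57 ± 0.24 SE. Cd80, a costimulatory molecule, differed by 0.55 ± 0.28 SE. No common direction was seen for Gadd45a, a growth arrest gene (0.25 ± 0.26 SE), Sfn, the epithelial 14-3-3 sigma (0.11 ± 0.31), Sesn1, sestrin 1 (-0.30 ± 0.35), or Ccng2, cyclin G2 (-0.27 ± 0.29). Tnfrsf10b, the mouse TRAIL receptor, differed by -0.57 ± 0.30 SE, and Xpc, which recognizes damage for excision repair, by -0.35 ± 0.21 SE with 0.94, 0.58 and 0.42 at 12 h, against 0.99, 1.04 and 0.96 in the controls. None of these 6 reached an unadjusted p under 0.05.

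**Figure D2:**
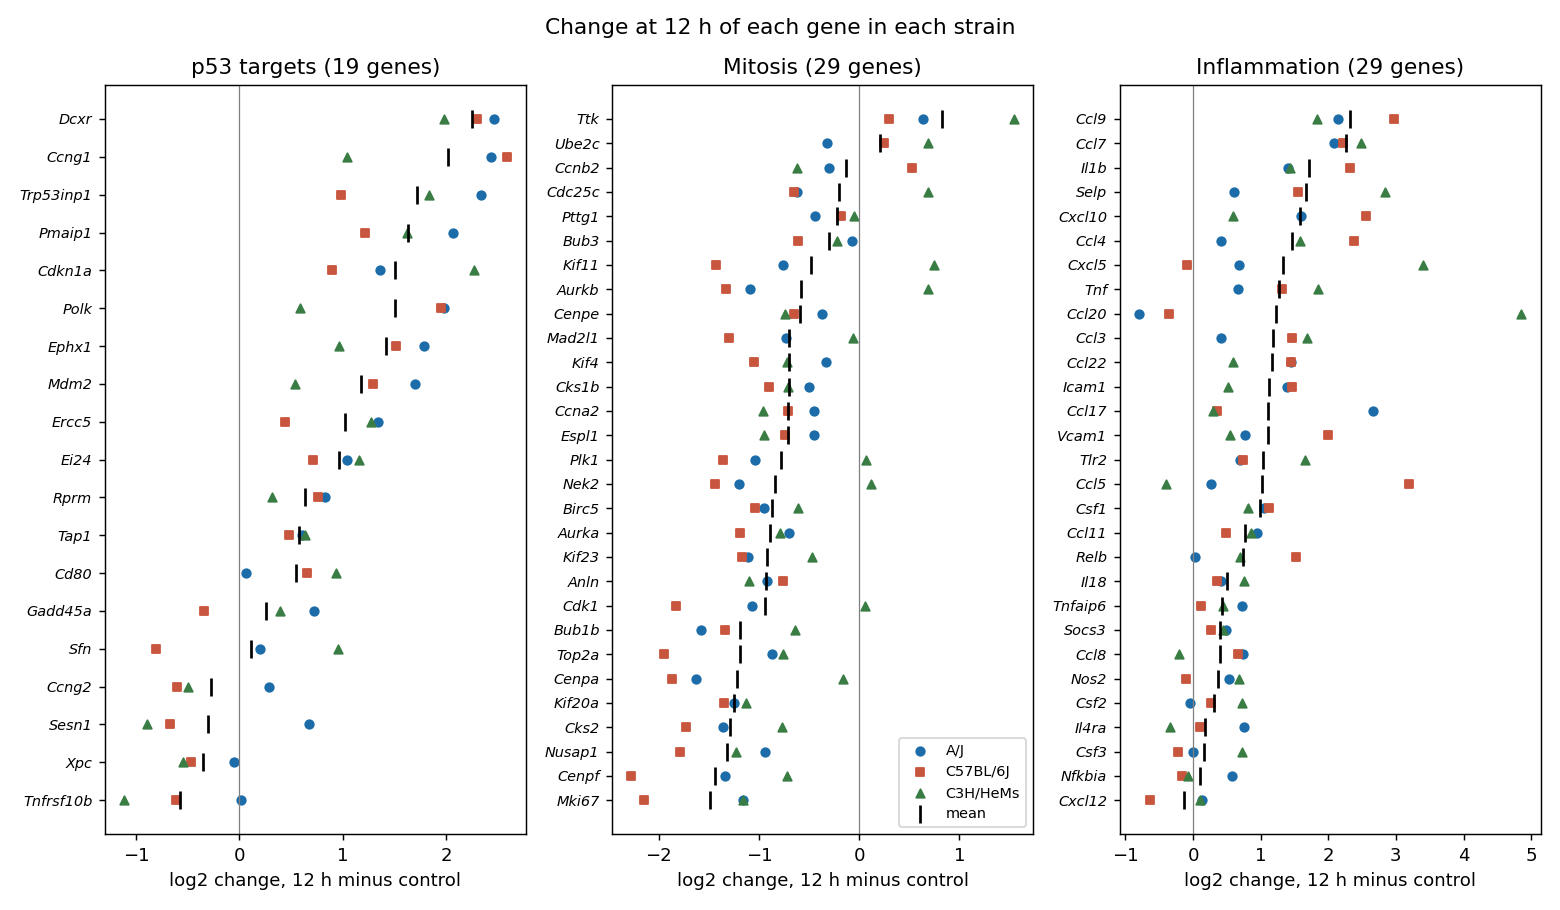
Change in log2 ratio, 12 h minus control of the same strain (horizontal axis), for every measured gene of 3 lists (vertical axis), with 1 symbol per strain and the mean as a bar. In the p53 list 13 of 19 genes are higher in all 3 strains, in the mitosis list 20 of 29 are lower in all 3, and in the inflammation list 19 of 29 are higher in all 3.

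Genes of mitosis were lower at 12 h. Of 29 measured members 20 were lower in all 3 strains and 1, Ttk, was higher in all 3, against 15.7% and 10.3% of all features. In limma 19 reached an unadjusted p under 0.05, all lower, against 3.71% of all features, and none passed after adjustment. On 15 of the 29 genes all arrays at 12 h lay below all controls, against 5.31% of all features. The median change was -0.78, with -0.87 for A/J, -1.19 for C57BL/6J and -0.62 for C3H/HeMs. It was -0.83 with the muscle covariate, where 17 reached the unadjusted threshold, and -1.01 without the C3H/HeMs arrays.

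Among the motors and spindle proteins, Kif20a, a kinesin needed to complete cell division, had log2 ratios of -1.18, -1.07 and -1.53 at 12 h, against 0.07, 0.29 and -0.40 in the controls. The pools did not overlap, and Kif20a was 2.37-fold lower (-1.25 ± 0.24 SE, limma adjusted p = 0.168). Nusap1, which bundles spindle microtubules, was at -0.49, -1.49 and -1.27 at 12 h, against 0.45, 0.29 and -0.04 in the controls, a 2.49-fold lower value (-1.32 ± 0.26 SE, limma adjusted p = 0.168). Cenpf, a kinetochore protein, was 2.72-fold lower (-1.44 ± 0.30 SE), with changes of -1.33, -2.27 and -0.72. Kif23, another kinesin of cytokinesis, differed by -0.91 ± 0.20 SE, and Anln, anillin of the contractile ring, by -0.92 ± 0.23 SE.

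The checkpoint and cell cycle kinases gave like values. Bub1b, a kinase-like protein of the spindle checkpoint, stood at -1.31, -1.01 and -1.35 at 12 h, against 0.27, 0.33 and -0.71 in the controls. Aurka, the kinase of the spindle poles, was at -2.13, -2.17 and -1.98 at 12 h and at -1.44, -0.98 and -1.20 in the controls. For both genes the 12 h pools lay below every control, by -1.19 ± 0.29 SE for Bub1b and -0.89 ± 0.23 SE for Aurka. Cks2, a partner of cyclin-dependent kinases, was 2.44-fold lower (-1.29 ± 0.26 SE, limma adjusted p = 0.184). Ttk, a checkpoint kinase also called Mps1, was the exception, at -0.31, -0.59 and -0.21 at 12 h, against -0.95, -0.89 and -1.75 in the controls.

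Markers of dividing cells as such were in the same range. Mki67, which encodes the proliferation antigen Ki-67, had log2 ratios of 0.19, -0.63 and -0.13 at 12 h, against 1.35, 1.52 and 1.02 in the controls. It was 2.80-fold lower (-1.49 ± 0.34 SE, limma adjusted p = 0.307) and one of the 4 features at least 2-fold lower in every strain. Top2a, topoisomerase II alpha, was at -0.46, -1.11 and -0.62 at 12 h, against 0.41, 0.84 and 0.13 in the controls, 2.28-fold lower (-1.19 ± 0.31 SE). DNA replication genes moved less. Of 20 measured, 8 were lower in all 3 strains and none was higher in all 3, against 15.7% and 10.3% of all features. Only 1 reached an unadjusted p under 0.05, against 3.71% of all features that were lower. It was Pole, the catalytic subunit of DNA polymerase epsilon (-0.73 ± 0.32 SE). The median change of the replication genes was -0.28.

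Many promoters of these mitosis genes held a short motif. The window of Bub1b, which was also lower at 12 h, held 1 match and is not printed. The 4 windows printed are examples that held 2 to 6 matches. Each shows the 250 bases before the start, from RefSeq on GRCm38.p6, with CCAAT, or ATTGG for the other strand, in capitals. Their positions are chr7:135716380-135716629 on the minus strand for Mki67, chr1:189688087-189688336 on the minus strand for Cenpf, chr13:51644982-51645231 on the plus strand for Cks2 and chr11:99024190-99024439 on the minus strand for Top2a.
Mki67: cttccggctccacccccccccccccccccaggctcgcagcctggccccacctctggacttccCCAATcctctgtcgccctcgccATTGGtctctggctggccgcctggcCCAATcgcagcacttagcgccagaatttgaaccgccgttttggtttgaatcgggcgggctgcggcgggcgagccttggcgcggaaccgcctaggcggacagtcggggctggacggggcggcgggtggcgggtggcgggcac
Cenpf: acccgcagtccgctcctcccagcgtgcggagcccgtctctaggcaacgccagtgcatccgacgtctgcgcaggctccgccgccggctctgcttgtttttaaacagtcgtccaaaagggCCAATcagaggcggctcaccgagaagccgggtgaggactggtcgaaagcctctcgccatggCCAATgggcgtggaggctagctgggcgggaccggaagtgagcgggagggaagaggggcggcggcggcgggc
Cks2: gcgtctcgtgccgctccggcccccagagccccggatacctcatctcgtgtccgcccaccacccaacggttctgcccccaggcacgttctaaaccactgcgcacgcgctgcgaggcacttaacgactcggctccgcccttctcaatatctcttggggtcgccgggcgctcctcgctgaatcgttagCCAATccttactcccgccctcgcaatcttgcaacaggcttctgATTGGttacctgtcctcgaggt
Top2a: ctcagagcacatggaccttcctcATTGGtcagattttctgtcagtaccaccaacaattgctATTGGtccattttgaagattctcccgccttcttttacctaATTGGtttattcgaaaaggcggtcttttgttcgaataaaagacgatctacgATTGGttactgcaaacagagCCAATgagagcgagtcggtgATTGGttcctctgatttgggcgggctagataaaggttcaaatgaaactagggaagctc
Of the 29 measured mitosis genes 25 matched, with 26 windows. CCAAT, searched on both strands, lay in 21 of the 26 windows (80.8%), against 33.8% of the 32851 windows of all genes. It also lay in 10 of the 18 windows of the p53 targets (55.6%). TTTGAA, the core of the cell cycle homology region, also searched on both strands, lay in 10 of 26 (38.5%), against 16.0% of all windows. These shares describe letters in this window and show nothing about binding.

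**Figure D3:**
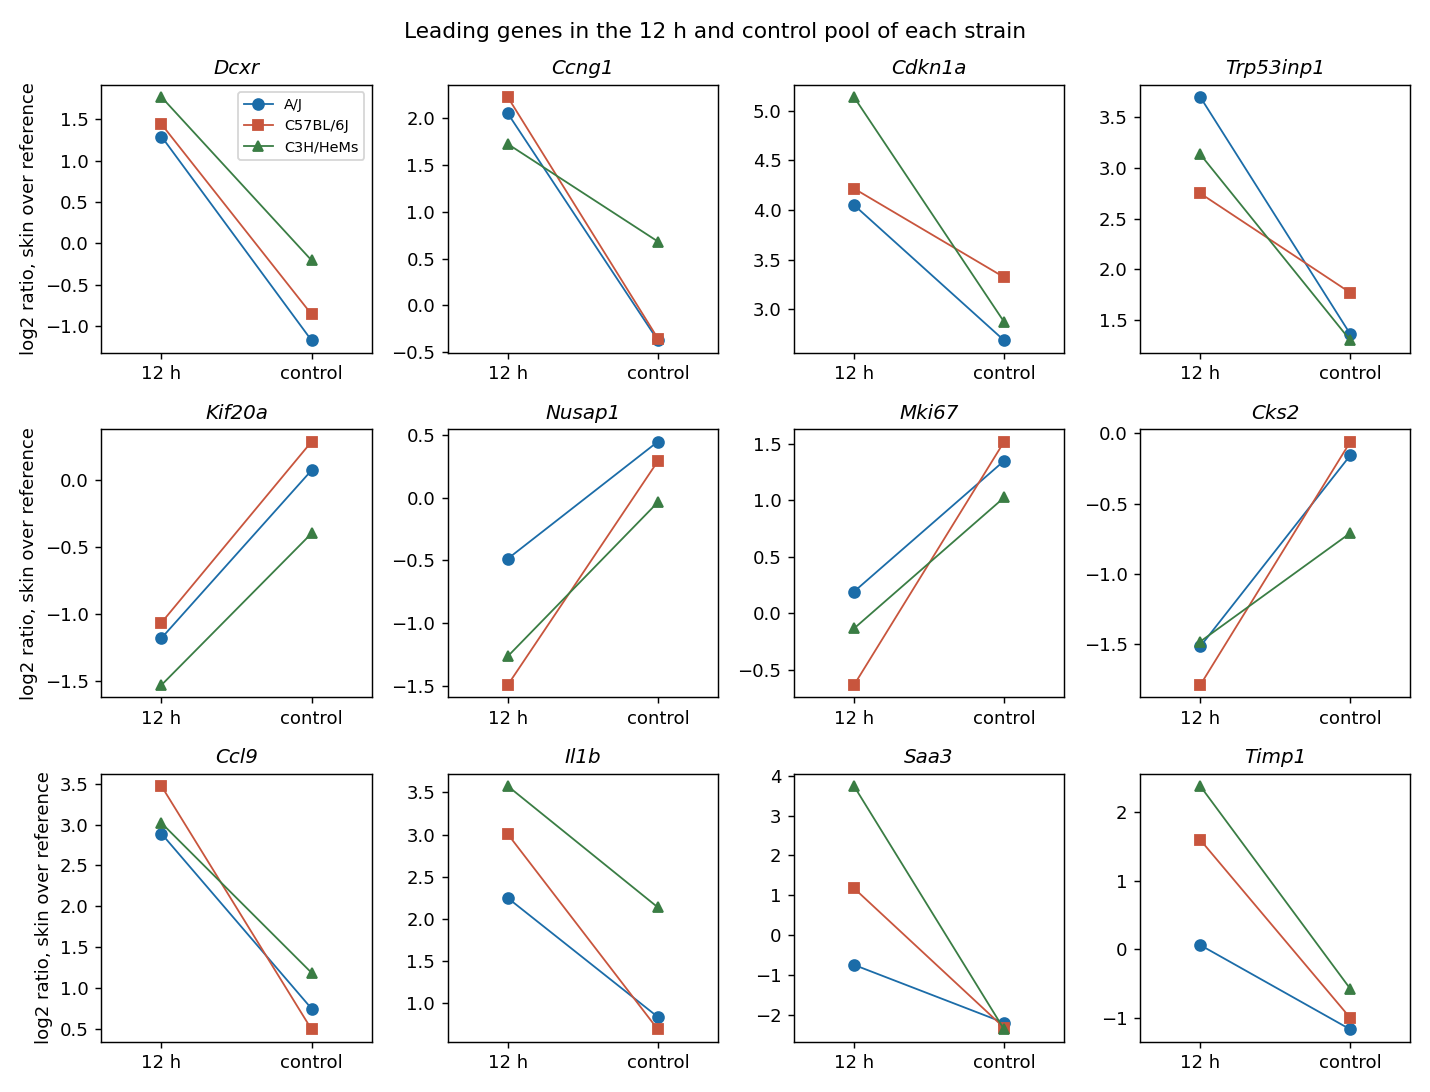
Log2 ratio of skin over reference (vertical axis) in the 12 h pool and the control pool of each strain (horizontal axis) for 12 genes, with 1 line per strain. All 12 h pools lie above all controls for Dcxr, Ccng1, Cdkn1a, Trp53inp1, Ccl9, Il1b, Saa3 and Timp1, and below them for Kif20a, Nusap1, Mki67 and Cks2.

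Inflammatory genes were higher at 12 h. Of 29 measured members 19 were higher in all 3 strains and none was lower in all 3, against 10.3% and 15.7% of all features. In limma 14 reached an unadjusted p under 0.05, all higher, against 2.99% of all features, and none passed after adjustment. The median change was 1.03, with 0.69 for A/J, 0.74 for C57BL/6J and 0.72 for C3H/HeMs, and it was 0.67 with the muscle covariate (13 at the unadjusted threshold), 0.77 without the C3H/HeMs arrays and 0.93 without those of C57BL/6J.

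Among the chemokines, Ccl9, which attracts monocytes and dendritic cells, had log2 ratios of 2.89, 3.47 and 3.02 at 12 h, against 0.75, 0.49 and 1.18 in the controls. It was 4.98-fold higher (2.32 ± 0.39 SE, limma adjusted p = 0.144). Ccl7, a monocyte chemokine also called MCP-3, was at 2.93, 3.99 and 3.79 at 12 h, against 0.84, 1.78 and 1.31 in the controls. All 12 h pools lay above all controls for both, and Ccl7 was 4.79-fold higher (2.26 ± 0.48 SE, limma adjusted p = 0.242). Ccl4 and Ccl3, macrophage inflammatory proteins, differed by 1.46 ± 0.39 and 1.18 ± 0.36 SE. Single strains led 2 other chemokines. Ccl20 was 4.86 log2 units higher in C3H/HeMs and lower in A/J (-0.80) and C57BL/6J (-0.36), and Ccl5 was 3.19 units higher in C57BL/6J, against 0.27 in A/J and -0.41 in C3H/HeMs.

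Of the cytokines and adhesion molecules, Il1b, interleukin 1 beta, was at 2.25, 3.01 and 3.57 at 12 h, against 0.84, 0.69 and 2.14 in the controls. It was 3.30-fold higher (1.72 ± 0.33 SE, limma adjusted p = 0.168). The gap between its groups was small, since the lowest 12 h pool exceeded the highest control, the C3H/HeMs one, by little. Tnf, tumour necrosis factor, differed by 1.27 ± 0.42 SE and was higher in 3 of 3 strains. Icam1 and Vcam1, to which leukocytes bind on vessel walls, differed by 1.12 ± 0.24 and 1.10 ± 0.34 SE. Selp, P-selectin, on which leukocytes first roll, differed by 1.66 ± 0.54 SE, with 0.60 for A/J, 1.55 for C57BL/6J and 2.84 for C3H/HeMs.

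Neutrophil and acute phase genes held the widest difference of all 8750 features. Saa3, an acute phase serum amyloid made in inflamed tissue, had log2 ratios of -0.74, 1.18 and 3.74 at 12 h, against -2.20, -2.32 and -2.36 in the controls. The controls were close together and the 12 h pools far apart, so that the mean change of 3.69 ± 0.80 SE (12.9-fold, limma adjusted p = 0.273) spanned 1.45 for A/J, 3.50 for C57BL/6J and 6.10 for C3H/HeMs. Lcn2, lipocalin 2, which binds bacterial siderophores, was at -1.03, -0.36 and 0.84 at 12 h, against -2.29, -2.94 and -2.02 in the controls (2.24 ± 0.50 SE). S100a8, a subunit of calprotectin in neutrophils and stressed keratinocytes, differed by 1.79 ± 0.60 SE. Csf3r, the receptor of the neutrophil growth factor G-CSF, and Itgam, the integrin CD11b, differed by 1.53 ± 0.42 and 1.42 ± 0.45 SE. Of the 15 measured, 6 were higher in all strains and none was lower in all, against 10.3% and 15.7% of all features. The median was 0.34. In limma 5 reached an unadjusted p under 0.05, all higher, against 2.99% of all features, and 5 with the muscle covariate.

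Macrophage and dendritic cell genes differed by strain. Of 28 measured, 9 were higher in all 3 strains, 2 lower in all, against 10.3% and 15.7% of all features. In limma 8 reached an unadjusted p under 0.05, all higher, against 2.99% of all features, and 5 with the muscle covariate. Their median change was 0.42 for A/J, 1.23 for C57BL/6J and -0.18 for C3H/HeMs. Among them, Cd163, a scavenger receptor of tissue macrophages, was at 2.59, 2.78 and 2.36 at 12 h, against 1.48, 1.20 and 1.59 in the controls. Laptm5, a lysosomal protein of blood cells, differed by 1.19 ± 0.37 SE, Spi1, the myeloid factor PU.1, by 0.92 ± 0.32 and Cd86, a costimulatory molecule, by 1.04 ± 0.37. The C57BL/6J pool at 12 h was also the one with high B cell and adipocyte genes, and the part of this in the immune results was not tested. The median of the neutrophil list was 0.32 without the C57BL/6J arrays, 0.92 without those of C3H/HeMs and 0.84 with the muscle covariate. That of the macrophage list, 0.43 over all arrays, was 0.21 without the C57BL/6J arrays, 0.91 without those of C3H/HeMs and 0.55 with the covariate.

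Interferon-induced genes were higher as well. Of 19 measured, 14 were higher in all 3 strains, against 10.3% of all features, and none was lower in all. In limma 9 reached an unadjusted p under 0.05, all higher, against 2.99% of all features. The median change was 0.57, with 0.58 for A/J, 1.06 for C57BL/6J and 0.43 for C3H/HeMs, 0.53 without the C57BL/6J arrays and 0.81 without those of C3H/HeMs. Ifit1, which binds viral RNA, had log2 ratios of 1.08, 2.21 and 0.95 at 12 h, against 0.13, 0.41 and -0.16 in the controls (1.29 ± 0.34 SE, limma adjusted p = 0.465). Rsad2, the antiviral protein viperin, differed by 1.42 ± 0.53 SE, Irf7, a transcription factor of the interferon response, by 1.16 ± 0.43 and Oas1a, which makes the activator of RNase L, by 0.95 ± 0.36. Cxcl10, an interferon-induced chemokine for T cells, differed by 1.59 ± 0.62 SE. For Rsad2, Irf7, Oas1a and Cxcl10 the C57BL/6J change was the highest of the 3 strains, at 2.62, 2.10, 1.80 and 2.56.

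Genes that keratinocytes of wound edges use were in part higher. Of 14 measured, 9 were higher in all 3 strains, against 10.3% of all features, and none was lower in all, with a median of 0.77. In limma 6 reached an unadjusted p under 0.05, all higher, against 2.99% of all features. With the muscle covariate 1 of the 14 did, and the median was 0.56. Timp1, an inhibitor of metalloproteinases, had log2 ratios of 0.06, 1.59 and 2.38 at 12 h, against -1.16, -1.0 and -0.58 in the controls. It was 4.78-fold higher (2.26 ± 0.43 SE, limma adjusted p = 0.168), and all 12 h pools lay above all controls. Plaur, the urokinase receptor, differed by 0.96 ± 0.32 SE and Itga5, the fibronectin receptor subunit, by 0.82 ± 0.33. Tnc, the matrix protein tenascin C, differed by 1.23 ± 0.46, with -0.01 in A/J and 2.79 in C3H/HeMs, and Krt6a, a keratin of activated epidermis, by 0.76 ± 0.34, mostly in C3H/HeMs (1.74). Without the C3H/HeMs arrays the median of this list was 0.42.

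The epidermis itself showed little common change. Basal keratinocyte genes, 14 measured, had a median of -0.07. None reached an unadjusted p under 0.05, against 2.99% of all features higher and 3.71% lower. With the muscle covariate 2 were higher and 1 lower, against 219 and 250 of all 8750 features. Of 20 genes of differentiation and barrier, 3 reached that threshold without the covariate, all higher, against 2.99% of all features, and 1 with it. Alox12b, a lipoxygenase of the barrier, was at 2.53, 1.81 and 3.02 at 12 h, against 1.54, 0.91 and 1.58 in the controls (1.11 ± 0.32 SE). Sprr2a1, a small proline-rich protein of the cornified envelope, differed by 1.68 ± 0.67 SE, and Klk6, a serine protease, by 0.94 ± 0.32 SE.

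Hair follicle genes were few and uneven. Of 9 measured none was higher in all 3 strains and 3 were lower in all, against 10.3% and 15.7% of all features. In limma 2 reached an unadjusted p under 0.05, Lef1 and Bmp4, both lower, against 3.71% of all features. With the muscle covariate none of the 9 did, and the differences were -1.01 for Lef1 and -0.45 for Bmp4. Lef1, the Wnt effector of the hair matrix, was at -0.01, -0.94 and -1.06 at 12 h, against 1.12, 0.62 and -0.33 in the controls (-1.14 ± 0.49 SE). Bmp4, a signal of the dermal papilla, differed by -0.02 for A/J, -1.33 for C57BL/6J and -1.65 for C3H/HeMs, and Sox9, a factor of follicle stem cells, by -0.69 ± 0.34. Crym, a crystallin of the follicle, differed by -0.88 ± 0.41 SE. The list's median was 0.01 for A/J, -1.46 for C57BL/6J and -0.33 for C3H/HeMs.

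In the dermis, 36 matrix and fibroblast genes were measured, with a median of -0.08. At an unadjusted p under 0.05, 4 were higher and 5 lower, against 2.99% and 3.71% of all features. Mmp2, a gelatinase, was at 3.19, 3.58 and 3.49 at 12 h, against 2.20, 2.12 and 2.95 in the controls (1.00 ± 0.25 SE). Mfap2 and Fbln5, proteins of elastic fibres, differed by -0.89 ± 0.33 and -0.79 ± 0.29 SE, with the largest differences in C3H/HeMs, at -1.62 and -1.76. With the muscle covariate 2 genes of this list were higher and none lower at the unadjusted threshold, and the differences were -0.53 for Mfap2 and -0.47 for Fbln5. Of 15 endothelial genes 3 were higher at an unadjusted p under 0.05, against 2.99% of all features. Among them were Nos3, endothelial nitric oxide synthase (0.94 ± 0.35 SE), and Cdh5, the cadherin of vessel walls (0.65 ± 0.25 SE). With the muscle covariate 1 of the 15 was higher. The median change of the endothelial list was 0.05 for A/J, 0.75 for C57BL/6J and -0.14 for C3H/HeMs. It was 0.32 over all arrays and -0.06 without the C57BL/6J arrays.

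**Figure D4:**
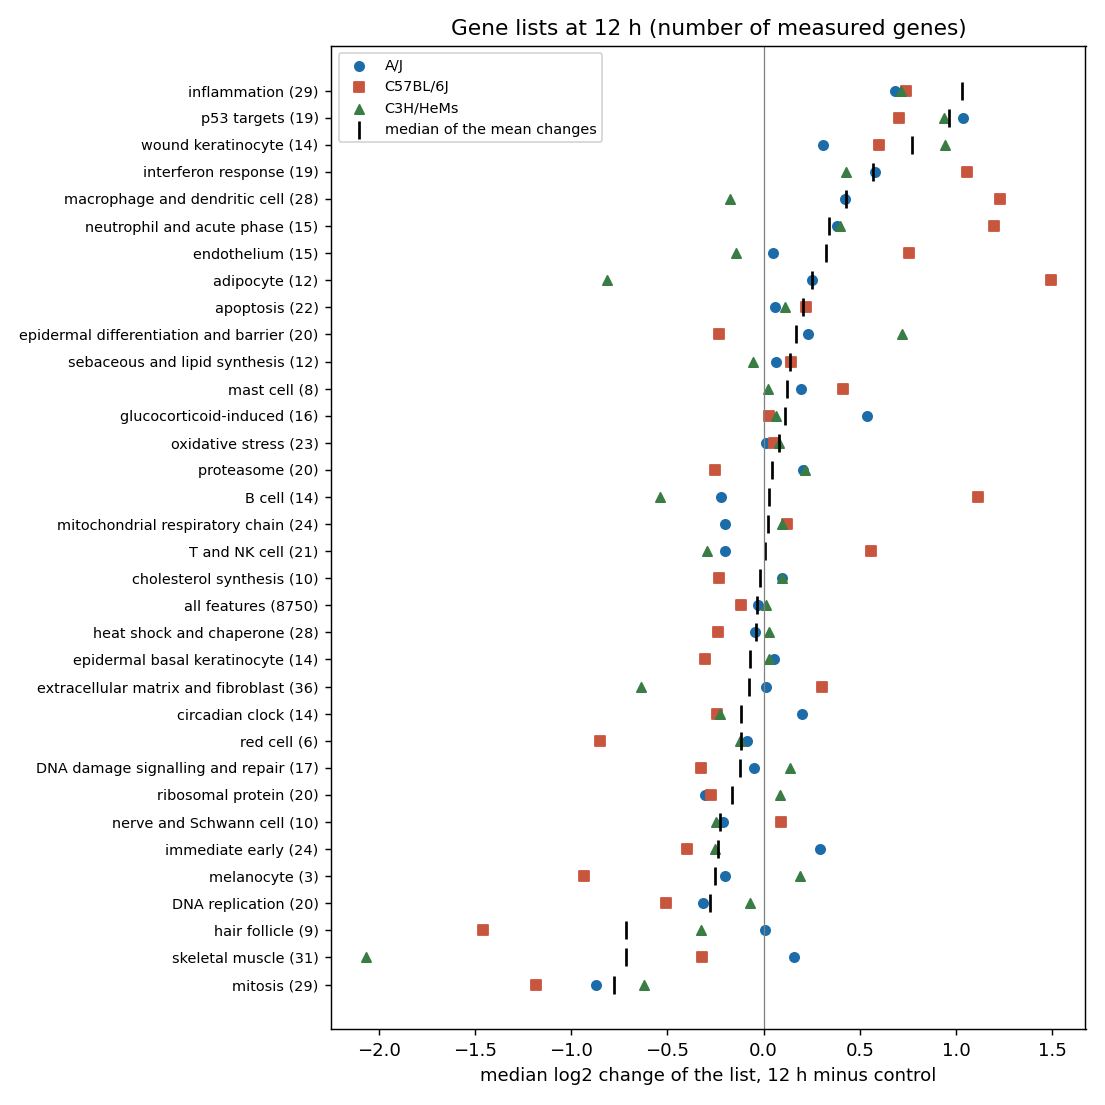
Median change in log2 ratio, 12 h minus control (horizontal axis), of each of the 33 gene lists and of all features (vertical axis, with the number of measured genes), by strain, with the median of the mean changes as a bar. The medians of the 3 strains lie together above 0 for p53 targets and inflammation and below 0 for mitosis, and lie far apart for muscle, adipocyte and B cell genes.

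Several genes outside the lists were among those with the smallest p. Abcb1b, a P-glycoprotein that exports drugs, had log2 ratios of 0.71, 0.62 and 1.29 at 12 h, against -1.18, -0.78 and -0.71 in the controls (1.76 ± 0.25 SE, limma adjusted p = 0.142). Exoc4, part of the exocyst complex in vesicle docking, was at 2.70, 2.58 and 2.47 at 12 h, against 0.56, 0.66 and 1.30 in the controls (1.75 ± 0.25 SE, limma adjusted p = 0.142). Ptp4a3, a phosphatase also called PRL-3, was at 1.21, 1.23 and 1.4 at 12 h, against -1.25, -0.60 and 0.24 in the controls (1.81 ± 0.30 SE, limma adjusted p = 0.144). The 12 h pools of these 3 genes lay above every control.

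Others with a small p belonged to metabolism, lysosomes and blood cells. Gsto1, a glutathione transferase, was 2.71-fold higher (1.44 ± 0.23 SE) while Ctsf, which encodes the lysosomal enzyme cathepsin F, was 2.27-fold higher (1.18 ± 0.22 SE). Lilr4b and Lilrb4a, closely related receptors of myeloid cells whose probes may share signal, were 3.64-fold and 3.16-fold higher. Ltb4r1, the leukotriene B4 receptor of neutrophils, was 2.51-fold higher (1.33 ± 0.25 SE), and Adgrg2, an adhesion G protein-coupled receptor, 2.10-fold (1.07 ± 0.19 SE). Psip1, a chromatin protein also called LEDGF, was 2.09-fold lower, at -1.66, -1.61 and -2.02 at 12 h, against -0.59, -0.73 and -0.77 in the controls. Their limma adjusted p-values lay between 0.144 and 0.168. The same direction in 3 of 3 strains was a condition for naming them and not a result.

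Further features at least 2-fold different in each strain were Serpina3n, an acute phase protease inhibitor (1.62 ± 0.31 SE), and Ly6e, a surface protein that interferon induces (1.21 ± 0.27 SE), both higher. Akr1c18, which inactivates progesterone (-1.48 ± 0.42 SE), and the predicted gene Gm11223 (-1.57 ± 0.52 SE) were lower.

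Immediate early genes, which respond within minutes to growth factors and stress, had no common direction at 12 h. Of 24 measured, 2 were higher and 1 lower at an unadjusted p under 0.05, against 2.99% and 3.71% of all features. None reached that threshold with the muscle covariate, and the median of the list was -0.24. Fos, the partner of Jun, was at 2.16, 1.02 and 1.98 at 12 h, against 1.35, 4.53 and 4.87 in the controls (-1.86 ± 0.80 SE). The C57BL/6J and C3H/HeMs controls were the high ones, and the same 2 controls were high for Nr4a1, an orphan nuclear receptor, at 1.24 and 1.76, against -0.25 in the A/J control. Nr4a3, of the same family, was higher in all strains (0.99 ± 0.34 SE), as was Fosl1 (1.35 ± 0.63 SE).

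Of 14 circadian clock genes none reached an unadjusted p under 0.05, against 6.71% of all features. With the muscle covariate 1 did, higher at 12 h, and the list's median was 0.07, against -0.12 without it. Without the covariate Per3, a period gene, had the widest difference upward, 0.59 ± 0.28 SE, and Usp2 the widest downward, -0.42 ± 0.23 SE. Small positive values were given by Nampt (0.28), Cry2 (0.24), Clock (0.05) and Bhlhe40 (0.04), and small negative ones by Wee1 (-0.39), Csnk1e (-0.38), Csnk1d (-0.30), Hlf (-0.24), Arntl (-0.21), Nr1d2 (-0.19), Rora (-0.04) and Per1 (-0.03).

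Stress, death and cell type lists not covered above had median changes between -0.25 (melanocytes) and 0.21 (apoptosis). Their counts at an unadjusted p under 0.05 stand against 2.99% of all features higher and 3.71% lower. Of 22 apoptosis genes 3 were higher and 1 lower at an unadjusted p under 0.05, and besides Pmaip1 these included Birc3, an inhibitor of apoptosis that NF-kappa B induces (0.93 ± 0.22 SE). Of 28 heat shock and chaperone genes 2 were lower, among them Hspa2, at -2.36, -3.40 and -2.44 at 12 h, against -1.85, -1.26 and 0.13 in the controls (-1.74 ± 0.39 SE). Of 6 red cell genes 1 was lower, Rhd, the blood group protein (-0.93 ± 0.21 SE). Oxidative stress, proteasome, mitochondrial and ribosomal protein genes had medians of 0.08, 0.04, 0.02 and -0.17. Of 17 genes of DNA damage signalling and repair 2 were higher, and none with the muscle covariate, with a median of -0.13, and of 16 genes that glucocorticoids induce 3 were higher, with a median of 0.11. Of 8 mast cell genes 2 were higher and of 21 T and NK cell genes 1. No gene reached an unadjusted p under 0.05 among 12 of sebaceous glands and lipid synthesis, 10 of cholesterol synthesis, 3 of melanocytes and 10 of nerve and Schwann cells.

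The 12 h pools were next set against the skin pools of the other times. Against 1 h, 1 feature passed in limma (0.0114% of all), Dcxr, which was 2.38 log2 units higher at 12 h (adjusted p = 0.0480). It was the only one of the 8750 to pass any of the contrasts as designed, and at the unadjusted threshold there were 568 (6.49%). The difference of Dcxr lay between 2.23 and 2.62 under every alternative run. Its adjusted p in limma was 0.0860 with no replicate block, 0.0438 after quantile normalization and 0.0118 with the muscle covariate, and it ran from 0.0675 to 0.613 when 1 array was left out. The change of Dcxr from control was -0.13 at 1 h, 2.24 at 12 h and 1.34 at 72 h. Against 72 h none passed, with 623 (7.12%) at the unadjusted threshold and a smallest adjusted p of 0.203.

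The groups differed in when they stood out. The p53 targets had median changes of -0.05 at 1 h, 0.97 at 12 h and 0.63 at 72 h from the same controls, and 7 of the 19 were higher and none lower at 12 h than at 1 h at an unadjusted p under 0.05, against 3.26% of all features. Mitosis genes had medians of -0.09, -0.78 and -0.50 over the same times, and 15 of the 29 were lower and 1 higher at 12 h than at 1 h, against 3.23% lower of all features. Against 72 h, 5 were lower and none higher, against 4.09%.

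Inflammatory genes had medians of 0.53 at 1 h, 1.03 at 12 h and 0.21 at 72 h, and 12 of the 29 were higher and 1 lower at 12 h than at 72 h, against 3.03% higher of all features. Against 1 h, 5 were higher and 3 lower, against 3.26% and 3.23%. The strain medians of these changes at 1 h were 0.71, 0.83 and 0.23, and at 12 h 0.69, 0.74 and 0.72. By them the list stood higher at 12 h than at 1 h in C3H/HeMs alone. The median log2 ratio of the list itself was 1.31, 0.88 and 0.79 at 1 h and 1.21, 1.60 and 1.58 at 12 h. By that measure it was higher at 12 h in C57BL/6J as well. Il1b had changes from control of 1.79 at 1 h, 1.72 at 12 h and -0.75 at 72 h. Interferon-induced genes had medians of -0.22, 0.57 and 0.06 over these times, and 9 of 19 were higher and none lower at 12 h than at 1 h, against 3.26% higher. The A/J median was 0.58 at 12 h and 0.92 at 72 h, while those of C57BL/6J and C3H/HeMs at 72 h were -0.14 and -0.29. Immediate early genes were the reverse, with 7 of 24 lower and none higher at 12 h than at 1 h, against 3.23% and 3.26% of all features. Fosl1 was 3.38 above control at 1 h and 1.35 above it at 12 h.

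**Figure D5:**
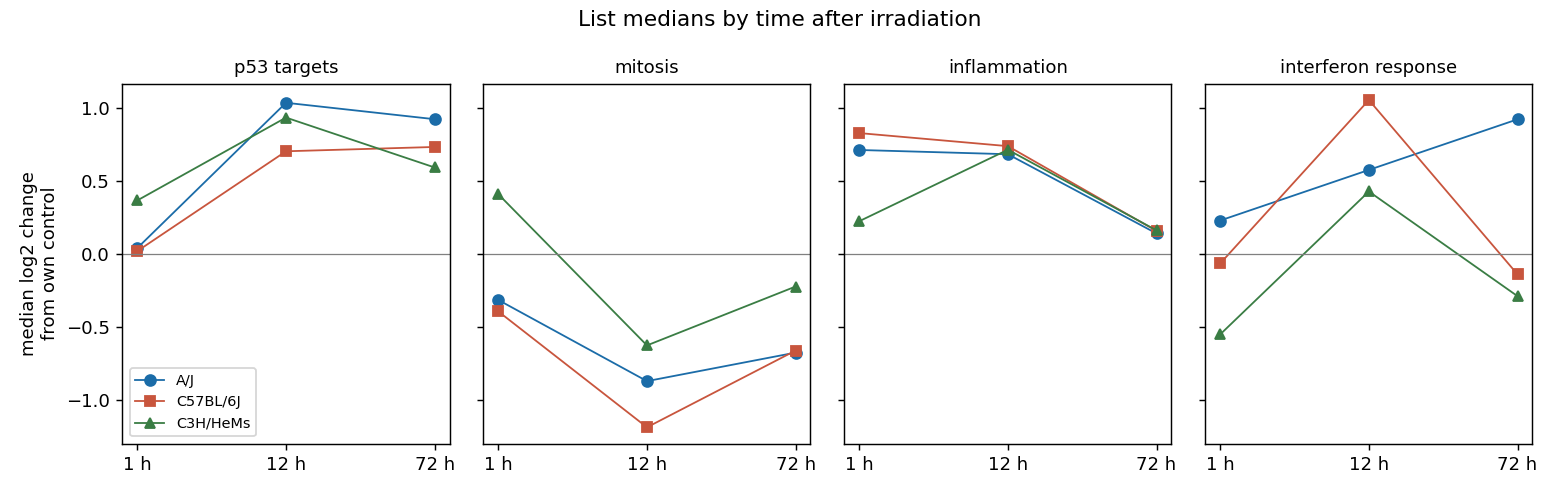
Median change in log2 ratio from the control of the same strain (vertical axis) at 1 h, 12 h and 72 h (horizontal axis, not to scale) for 4 gene lists, with 1 line per strain. At 12 h the 3 strains lie between 0.71 and 1.04 for p53 targets and between -1.19 and -0.62 for mitosis.

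The change in skin at 12 h was also set against that in lung 12 h after 10 Gy to the thorax, in the same strains. Organ and dose differed together, so their parts cannot be told apart, and the A/J and C3H/HeMs lung arrays at 12 h held 674 and 183 ratios of exactly 0, against 0 to 17 on the skin arrays at 12 h. None of 8750 features passed for the difference of the responses in limma, with 737 (8.42%) at an unadjusted p under 0.05 and a smallest adjusted p of 0.440. The p53 targets had a median change of 0.97 in skin and 0.76 in lung, and of 19 members 1 was more positive and 1 more negative in skin at the unadjusted threshold, against 3.3% and 5.12% of all features. Ccng1 was 2.02 higher in skin and 2.35 higher in lung, while Dcxr was 2.24 higher in skin and 0.79 in lung, and Cdkn1a 1.51 in skin and 2.71 in lung.

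Mitosis and inflammation genes gave more uneven pairs of values. Mitosis genes had a median of -0.78 in skin and -0.13 in lung, and 13 of 29 were more negative and 1 more positive in skin at an unadjusted p under 0.05, against 5.12% and 3.3% of all features. Mki67 was at -1.49 in skin and -0.15 in lung. Inflammatory genes had medians of 1.03 in skin and 0.04 in lung, and 10 of 29 were more positive, against 3.3% of all features, and none more negative in skin. Abcb1b differed between the responses by 1.65 (limma adjusted p = 0.440), with 1.76 in skin and 0.11 in lung.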

How the data were processed

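The authors deposited a log10 ratio of Cy5 to Cy3 per probe of 2-colour Agilent cDNA arrays, made with Agilent Feature Extraction per the submitters' processing notes, limited to ±2 (15 to 42 probes per skin array). Its version, background and dye steps are not given in the sources used here. Per the labels skin RNA carried Cy5. Lung carried Cy3 and was turned in sign. Ratios were converted to log2, centred on each array's median, and averaged over probes of a gene. Of 9275 probes 6433 had 1 symbol in the platform annotation, 381 several and 2461 none. Array correlations in skin ran from 0.77 to 0.95.

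limma 3.58.1 in R 4.3.3 fitted all 12 skin arrays with terms for 4 groups and a strain block (6 residual degrees of freedom), or 24 arrays for skin against lung, with Benjamini-Hochberg adjustment over all features and a threshold of 0.05. The fit was tested on simulated data. Strain pairs the samples by design. Deviations from group means of the 12 h and control arrays correlated by 0.27 for A/J, 0.23 for C57BL/6J and -0.05 for C3H/HeMs.

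Genes were named by a rule: the 20 smallest p, the 10 largest changes per direction among those at least 2-fold in all strains, up to 4 smallest p per list, all p53 targets and clock genes, and the 6 most variable muscle genes. Other named genes (such as Serpina3n, Ly6e, Top2a, Bub1b, Ccl20, Ccl5 and Ccl27a) were chosen after their values were seen. The comparison, the 33 lists and their genes were chosen with earlier results of these data known. Some genes stand in several lists, so the counts of the lists are not independent. Examples are Tap1 (p53 targets and interferon) and Timp1 (wound and matrix). Cdkn1a and Lcn2 also stand in the glucocorticoid list. Alternatives were the block, scaling, probe handling, moderation, a muscle covariate and leaving out arrays or strains.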

Additional observations from a re-analysis of the deposited data

How the results depend on the processing

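The count of features passing between 12 h and control was 0 with the strain as a block and 0 with no replicate block, on the 6 arrays alone, without centring, per probe, without features at the limit, with robust moderation and after quantile normalization (434 to 642 at an unadjusted p under 0.05). With the muscle covariate it was 3 (Dcxr, Exoc4 and Ptp4a3, 469 at the unadjusted threshold). Leaving out arrays or strains gave 0 to 1 (250 to 1006). Ccng1 passed without the C3H/HeMs array at 12 h, and 1 unnamed probe without the A/J array at 12 h. Against 1 h the count of 1 became 0 with no replicate block, 2 after quantile normalization, 4 with the muscle covariate and 0 to 1 when arrays were left out. Dcxr did not pass in any of those fits without an array, and its difference stayed between 2.23 and 2.62. Against 72 h it stayed at 0, with 0 to 1 when arrays were left out, and the 1 came without the A/J array at 72 h. The skin and lung responses gave 0 to 2 when arrays were left out, 1 without the C3H/HeMs array at 12 h and 2 without the A/J control. Beyond Dcxr against 1 h, leaving the strain block out changed no call. At the unadjusted threshold leaving out arrays gave 343 to 1228 features against 1 h, 308 to 977 against 72 h and 438 to 1321 for skin against lung. A 1.5-fold rule in all strains gave 84 higher and 40 lower features. With 1 strain left out, so that 2 had to move, the 2-fold rule gave 40 to 75 higher and 10 to 70 lower. Of 118 named genes 99 kept the sign of their change under all 17 alternatives, and 19 did not, for which the cause was not tested. When arrays or strains were left out, the change of Sfn ran from -0.30 to 0.57, that of Ccl20 from -0.58 to 2.25, that of Ccl5 from -0.18 to 1.73, that of Pvalb from -2.03 to 1.38, that of Atp2a1 from -2.18 to 0.65, that of Mylpf from -2.12 to 0.58, that of Cd79a from -0.83 to 1.15, that of Cidec from -0.15 to 2.15, that of Car3 from -0.92 to 0.0019, that of Tnni2 from -2.13 to 0.36, that of Tnnt3 from -2.05 to 0.49, that of Wee1 from -0.78 to 0.037, that of Arntl from -0.74 to 0.11, that of Clock from -0.14 to 0.16, that of Rora from -0.19 to 0.15, that of Bhlhe40 from -0.14 to 0.30, and that of Per1 from -0.22 to 0.28. With the muscle covariate and the replicate block the change was 0.025 for Sesn1, -0.085 for Ccl20, 1.18 for Pvalb, 0.30 for Atp2a1, 0.41 for Mylpf, 0.39 for Tnni2, 0.39 for Tnnt3, 0.035 for Wee1, 0.067 for Nr1d2, 0.11 for Arntl, 0.086 for Rora.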

Other observations

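Outside the lists, Ccl27a, a chemokine that keratinocytes make and that draws T cells to skin, had the widest negative difference of all 8750 features. Its log2 ratios were -0.92, -2.54 and -1.61 at 12 h, in the strain order used above, against 0.05, 1.29 and 1.31 in the controls. All 12 h pools lay below all controls, by 5.96-fold (-2.57 ± 0.52 SE, limma adjusted p = 0.194), and leaving out arrays or strains gave values between -3.37 and -1.95.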
